A study of Mus musculus with 8 samples.

Results

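RNA bound to polyribosomes was compared between mice killed 6 h and mice killed 1 h after a training session, in hippocampus and prefrontal cortex. The mice were C57Bl/6 animals aged 7 to 9 weeks. The comparison used all 8 libraries of the series, 4 at 6 h and 4 at 1 h, and every gene of the deposited transcript counts. At each time there was 1 library of cortex from control mice, which were placed in the context alone, 1 of hippocampus from control mice, 1 of cortex from fear-conditioned mice and 1 of hippocampus from fear-conditioned mice. Both time groups therefore held mice that had been through a session, and no animal outside the chamber was analysed here. The sources used here do not say how many mice went into a library or whether one mouse gave both tissues, so the p-values below measure only the spread between these samples, which may be technical.

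A message being read by several ribosomes at once sediments as a polyribosome, and RNA from that fraction is read as the part of the transcriptome that is being translated. Neurons that are activated transcribe immediate early genes within minutes, among them transcription factors of the Fos, Egr and Nr4a families, whose messages are short-lived. A later set of genes, for synaptic proteins, secreted factors and metabolism, follows over hours, and protein synthesis in this window is needed for a fear memory to last. A stressful session also raises glucocorticoid hormones, which switch on genes such as Sgk1 and Fkbp5, and samples taken some hours apart can differ in the phase of the circadian clock.

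Each library held between 2370973 and 5296986 counts and between 13607 and 15341 genes with a count, with the lowest of both in hippocampus control 6 h. In that library the kinesin gene Kif5c took 8.01% of all counts, beside 0.545% in hippocampus conditioned 6 h and 0.0382% to 0.0711% in the others. The cortex conditioned 1 h and hippocampus conditioned 1 h libraries differed by no more than counting noise (variance over that noise 1.06 over 11599 genes, with 0 genes passing a chi-square test at an adjusted p of 0.05 and 5.96% of genes at an unadjusted p under 0.05). The next closest 2 libraries stood at 4.76, with 1435 genes passing. The pair was therefore counted as 1 sample, made by summing, which left 3 samples at 1 h and 4 at 6 h. Which tissue or tissues these 2 libraries hold, or whether 1 library was deposited in both places, was not settled, so their separate tissue labels are not relied on. The labelled tissues showed in their markers: 20 genes of cortical excitatory neurons summed to 2170 CPM (counts scaled to a common library total) in cortex control 1 h and 1138 in hippocampus control 1 h, 22 of hippocampal excitatory neurons to 637 and 1409, and the summed conditioned sample stood between them at 1731 and 1084. Those sums used TMM factors. Without the factors, 10 of 12 lists of cell type markers had summed levels that overlapped between the times. The 7 blood genes, mostly globins, then summed to 116.8 to 183 at 1 h and to 10.1 to 116.2 at 6 h, so the times barely separated. Of the 7, 1 was without a count at 6 h. With the factors, 4 of these blood genes overlapped, at 88.5 CPM in the summed conditioned 1 h sample and 91.5 in cortex control 6 h. Without the factors, the 10 meningeal fibroblast markers summed to 433 to 639 at 1 h and 168 to 348 at 6 h, all with counts. Their members did not fall together. Of the 8 tested, 1 was higher and 2 lower with the trend left in, 4 were positive and the median log2 change was 0.05. With the trend removed 1 rose and 0 fell. The part of blood and meningeal cells in the results below was not tested, and in samples of whole tissue fewer cells of a type cannot be told apart from less RNA per cell.

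The difference between the times followed the base composition of the messages. Genes with AT-rich transcripts were higher at 6 h and genes with GC-rich transcripts were lower. In the 1196 genes of lowest GC content, 31.2% to 42.1%, the median log2 change from 1 h to 6 h was 1.25, and 857 of them rose and 3 fell in edgeR's quasi-likelihood test at an adjusted p of 0.05. In the 1195 genes of highest GC content, 58.4% to 71.3%, the median was -1.09, and 2 rose and 703 fell. The deciles between them lay in order, without exception, from 0.89 to -0.90. Transcript length gave a weaker gradient, from a median of -0.85 in the shortest decile to 0.56 in the longest.

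The coding sequence of the most changed genes shows this composition. The stretches below are 90 bases of a single coding exon, chosen by a script to have the GC content nearest that of the whole transcript, with G and C in capitals. They come from GENCODE transcripts on GRCm38, while the reads were counted on mm9. Cep290, a protein of the centrosome and the ciliary transition zone (chr10:100492674-100492763 (+ strand), 37.9% GC in the transcript), Esf1, a nucleolar protein of ribosomal RNA processing (chr2:140168280-140168369 (- strand), 39%), and Ppig, a cyclophilin that binds splicing factors (chr2:69741568-69741657 (+ strand), 37.8%), were among the 6 largest rises with the trend left in. Rplp1, a protein of the ribosomal stalk (chr9:61913349-61913438 (- strand), 57.3%), Cox4i1, a subunit of cytochrome c oxidase (chr8:120672744-120672833 (+ strand), 57.6%), and Rabac1, a membrane protein of Golgi traffic (chr7:24972150-24972239 (- strand), 60.2%), were among the 6 largest falls.
Cep290: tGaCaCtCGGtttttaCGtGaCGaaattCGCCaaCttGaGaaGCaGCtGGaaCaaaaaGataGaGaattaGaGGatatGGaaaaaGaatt
Esf1: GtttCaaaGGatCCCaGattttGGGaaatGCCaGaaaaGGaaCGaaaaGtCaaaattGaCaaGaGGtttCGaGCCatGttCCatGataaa
Ppig: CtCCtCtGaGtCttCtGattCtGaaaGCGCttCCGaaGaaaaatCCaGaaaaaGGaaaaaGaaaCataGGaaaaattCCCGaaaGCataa
Rplp1: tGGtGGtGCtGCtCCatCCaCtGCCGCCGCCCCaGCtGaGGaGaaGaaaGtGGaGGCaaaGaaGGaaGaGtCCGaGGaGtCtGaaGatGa
Cox4i1: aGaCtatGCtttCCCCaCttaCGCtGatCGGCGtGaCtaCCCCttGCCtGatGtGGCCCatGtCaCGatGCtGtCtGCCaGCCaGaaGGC
Rabac1: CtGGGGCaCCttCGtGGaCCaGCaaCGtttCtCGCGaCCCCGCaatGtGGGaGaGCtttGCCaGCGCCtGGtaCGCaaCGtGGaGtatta

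The slope of log2 CPM on GC content, after each gene's mean over samples was subtracted, was 0.77 log2 units per 10 percentage points in cortex control 1 h, 0.51 in hippocampus control 1 h and 0.70 in the summed conditioned 1 h sample. At 6 h it was -0.28 in cortex control, -1.23 in hippocampus control, -0.33 in cortex conditioned and -0.14 in hippocampus conditioned. The 1 h samples all lay above the 6 h samples, with no overlap. Because each gene's mean was subtracted, the slopes are relative to these 7 samples, and the side of 0 has no meaning of its own. The means were 0.66 ± 0.13 (SD, n = 3) and -0.50 ± 0.50 (SD, n = 4), a difference of -1.16 with an exact two-sided permutation p of 0.0571, which is the smallest that 3 against 4 samples can give. Hippocampus control 6 h had by far the lowest slope, and without it the difference was -0.92.

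**Figure D1:**
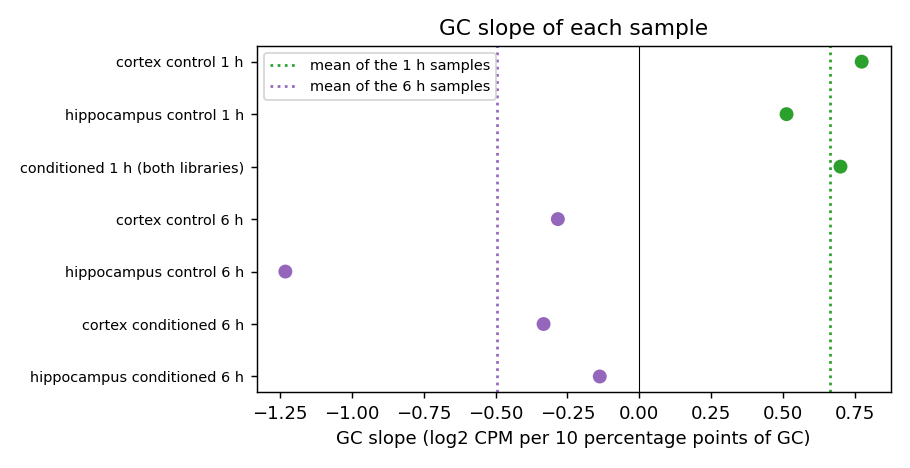
Slope of log2 CPM on transcript GC content in each of the 7 samples (log2 units per 10 percentage points, green for 1 h and purple for 6 h), with dotted lines at the 2 means. The 3 samples at 1 h lie between 0.51 and 0.77 and the 4 at 6 h between -1.23 and -0.14.

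The same gradient appeared in each of the 4 ratios of a 6 h to a 1 h library of the same labels. In the decile of lowest GC content the median log2 ratio was 1.19 in cortex control, 1.59 in hippocampus control, 1.08 in cortex conditioned and 0.92 in hippocampus conditioned. In the decile of highest GC content it was -0.95, -1.83, -0.96 and -0.73 in the same order. Both conditioned ratios rest on the pair that counts as 1 sample and are therefore not independent of each other at 1 h. The 22 hippocampal markers had trend-removed medians of -1.95 in the cortex conditioned and 0.97 in the hippocampus conditioned ratio, beside 0.08 and 0.11 in the control ratios, so they went in opposite directions in the 2 conditioned ratios.

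**Figure D2:**
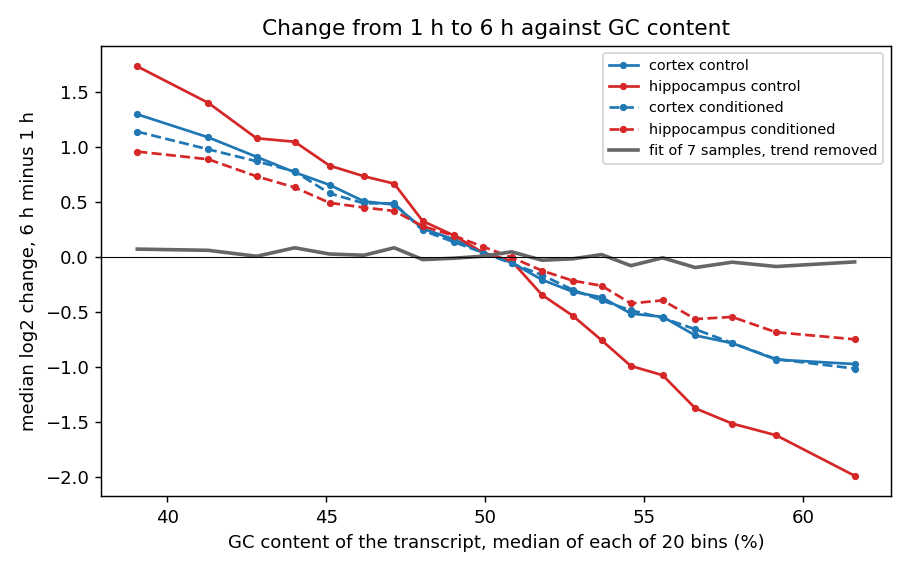
Median log2 change from 1 h to 6 h (y axis) in 20 bins of genes ordered by transcript GC content (x axis, median of each bin in percent), for the 4 ratios of libraries and for the fit after the trend was removed. All 4 ratios fall from left to right, most steeply in hippocampus control, and the grey line of the fit with the trend removed stays near 0.

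Across 10919 genes with every part of the transcript annotated, the change went with the GC content of the whole transcript (Spearman's rho -0.78), of the coding sequence (-0.68), of the third codon positions (-0.65) and of the 3' untranslated region (-0.66), and hardly with that of the 5' untranslated region (-0.08). The number of ATTTA pentamers in the 3' untranslated region, a motif of short-lived messages that is itself AT-rich, gave 0.53, and the length of the gene on the genome gave 0.42. Genes share libraries and base composition, so these are descriptions across genes and have no test. GC content and length together accounted for 62.6% of the variance of the change over these genes. The protocol in the labels removed ribosomal RNA, primed cDNA both at random and at poly A tails, and amplified it by an isothermal method (SPIA) and then by PCR. Labels naming the batch of these steps were not among those analysed here, so a difference in preparation cannot be told apart from the time after the session.

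With the trend left in, 4576 of 12259 genes tested differed between the times (37.3% of genes), 2529 higher at 6 h (20.6%) and 2047 lower (16.7%), with a median log2 change of -0.03 over all genes. The split of calls moved with the scaling: 55.3% of calls were higher with TMM factors and 44.7% with upper-quartile factors, which moved the median of all genes to -0.16. Without cortex control 1 h, edgeR called 0 genes (4181 at an unadjusted p under 0.05). Without hippocampus control 1 h the count was 1552, without cortex conditioned 6 h it was 1804, and without the pair it was 2677.

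Kif5c, a heavy chain of the kinesin that carries cargo along axons, was the largest of the named rises. Its CPM was 356, 373 and 352 at 1 h and 714, 108168, 725 and 5491 at 6 h, where here and below the 1 h values are those of cortex control, hippocampus control and the summed conditioned sample, and the 6 h values those of cortex control, hippocampus control, cortex conditioned and hippocampus conditioned. These genes were taken only if the times did not overlap. Hippocampus control 6 h stood far above the rest, and hippocampus conditioned 6 h above the others. The fit gave a log2 change of 3.55 (SE 1.07, adjusted p = 0.0282), or 2.11 (adjusted p = 0.0111) without hippocampus control 6 h, and with the trend removed Kif5c did not pass (3.04, adjusted p = 0.0584). Ppig had 27.6, 31.3 and 31.0 CPM at 1 h and 198, 897, 216 and 116 at 6 h, with a log2 change of 3.39 (SE 0.55, adjusted p = 0.00599). Cep290 went from 6.97, 6.25 and 6.08 CPM at 1 h to 54.1, 119, 46.9 and 22.3 at 6 h, and rose by 3.18 (adjusted p = 0.00599). Hmgn5, a nucleosome-binding protein, Ccdc88a, an actin-binding protein also called girdin, and Esf1 completed the 6, with log2 changes of 3.22, 3.04 and 2.99.

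Rpph1, the RNA of ribonuclease P, led the falls, from 51.4, 119 and 70.1 CPM at 1 h to 9.37, 3.99, 5.002 and 21.2 at 6 h, with a log2 change of -2.97 (SE 0.43, adjusted p = 0.00599). Cox4i1 stood at 263, 257 and 230.0 CPM at 1 h and 77.3, 3.99, 88.5 and 32.0 at 6 h, lowest in hippocampus control 6 h, with a log2 change of -2.80 (SE 0.57, adjusted p = 0.00848). Rplp1 stood at 45.2, 67.9 and 37.2 CPM at 1 h and 10.1, 3.99, 10.8 and 4.14 at 6 h, with a log2 change of -2.75 (SE 0.39, adjusted p = 0.00599). All 3 were lowest in hippocampus control 6 h. Uqcrq, a subunit of respiratory complex III, Grcc10 and Rabac1 fell by 2.73, 2.67 and 2.64 on the log2 scale.

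Removing from each sample a smooth curve of log2 CPM on GC content and on length left 1275 of 11951 genes that differed (10.7%), 820 higher at 6 h (6.86%) and 455 lower (3.81%), with a median of -0.01. Any true change that follows GC content or length is removed with the curve. Of the 4473 genes called with the trend left in that have a GC content, 821 (18.4%) were called in the same direction after removal and 2 in the opposite one, and 452 of the 1275 had not been called before. The calls rested on single libraries. Without cortex control 1 h, edgeR called 0 genes (2157 at an unadjusted p under 0.05), without hippocampus control 1 h 97, without cortex conditioned 6 h 132, without the pair 566, and with a block of 3 levels in place of additive tissue and training 733. Without hippocampus control 6 h it called 1778 of 12047 genes, 1010 higher and 768 lower. The 566 without the pair were of 11758 genes, 421 higher and 145 lower. Counts of gene lists in these 2 fits, given below, are to be read beside those of all genes here, not beside 10.7%. Across genes, the log2 ratios of 6 h to 1 h in control cortex and in control hippocampus, which share no library, had a Pearson r of 0.72 with the trend left in and 0.44 with it removed.

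The 12 largest rises with the trend removed were led by genes of varied function, in 40.7% to 56.5% GC transcripts. Trend-adjusted CPM, which is CPM divided by the sample's fitted curve at that gene, was 2.32, 3.40 and 2.81 at 1 h and 12.7, 125, 10.2 and 18.0 at 6 h for Xpa, a damage-recognition protein of nucleotide excision repair, with a log2 change of 3.35 (SE 0.54, adjusted p = 0.0101). C1ql3, a secreted C1q-like protein of synapses, had 33.7, 40.8 and 38.7 at 1 h and 129, 691, 171 and 86.4 at 6 h, with a log2 change of 2.65 (SE 0.51, adjusted p = 0.0138). Only genes whose times did not overlap were eligible, and in both of these hippocampus control 6 h stood well above the rest. The same library was the highest in all 12 of these genes. Without it the 12 changes lay between 1.09 (Mbd2) and 2.39 (Xpa), and all 12 still passed.

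Sobp, a gene needed for inner ear development, was more even, with 36.4, 55.2 and 43.6 at 1 h, 174, 480.1, 159.6 and 131 at 6 h and a log2 change of 2.34 (SE 0.31, adjusted p = 0.00769). Pdgfa, a ligand of the receptor on oligodendrocyte precursors, had 5.59, 8.39 and 6.64 at 1 h and 29.7, 45.4, 32.9 and 13.5 at 6 h, with a log2 change of 2.12 (SE 0.35, adjusted p = 0.0102). Nefm, the medium neurofilament subunit of axons, had 346, 247 and 255 at 1 h and 801, 3363, 742 and 443 at 6 h, with a log2 change of 2.06 (SE 0.47, adjusted p = 0.0239), and 1.16 without hippocampus control 6 h. All 3 were lowest at 6 h in hippocampus conditioned. Slc25a4, which exchanges ADP and ATP across the inner mitochondrial membrane, had 259, 274 and 271 at 1 h and 517, 4355, 759 and 707 at 6 h. Its change of 2.22 (adjusted p = 0.0236) became 1.21 without hippocampus control 6 h. The remaining rises were Sowaha (2.57), the Golgi protein Scoc (2.28), Hmgn5 (2.23), Pwwp2a, a reader of the histone variant H2A.Z (2.13), Mbd2, which binds methylated DNA (2.10), and Ccdc186 (2.06).

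Among the 12 largest falls were genes of respiration, splicing and chromatin. Uqcrq, which stands in the falls of both fits, had 50.6, 67.3 and 49.9 trend-adjusted CPM at 1 h and 17.1, 2.85, 10.5 and 6.92 at 6 h, with a log2 change of -2.52 (SE 0.34, adjusted p = 0.00769). Sf3b5, a subunit of the splicing factor that recognises the branch point, had 38.4, 38.3 and 29.2 at 1 h and 7.04, 3.17, 6.28 and 6.91 at 6 h, with a log2 change of -2.52 (SE 0.28, adjusted p = 0.00628). In Sf3b5 the 6 h samples lay close together apart from a lower hippocampus control. Wdr89 fell most, from 69.3, 103 and 65.1 at 1 h to 15.6, 1.698, 17.1 and 9.56 at 6 h, with a log2 change of -2.92 (SE 0.44, adjusted p = 0.00950). Slc7a11, the cystine and glutamate exchanger, had 96.8, 45.8 and 73.5 at 1 h and 24.7, 4.91, 27.6 and 27.6 at 6 h, with a log2 change of -1.94 (SE 0.35, adjusted p = 0.0116), and had not passed with the trend left in (-0.72, adjusted p = 0.0765). Stt3a, a catalytic subunit of oligosaccharyltransferase, fell by 1.83 after removal (adjusted p = 0.00866) and likewise had not passed before it (adjusted p = 0.0695).

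The others were the nucleoside diphosphate kinase Nme1 (-1.66), Zbed5 (-1.78), Lars2, the mitochondrial leucyl-tRNA synthetase (-1.74), Aldoart1, a retrogene of aldolase A whose reads may be shared with its parent (-1.59), and the histone genes H2bc9 (-2.19), H2bc6 (-2.18) and H4c4 (-1.89). Hippocampus control 6 h was the lowest of all samples in 10 of the 12, the exceptions being H4c4 and Lars2. Without that library 10 of the 12 passed, with changes of -2.36 to -1.19, while H4c4 (-1.92, adjusted p = 0.0602) and Lars2 (-1.47, adjusted p = 0.357) did not. In all, 566 rises and 249 falls met the conditions from which these genes were taken.

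**Figure D3:**
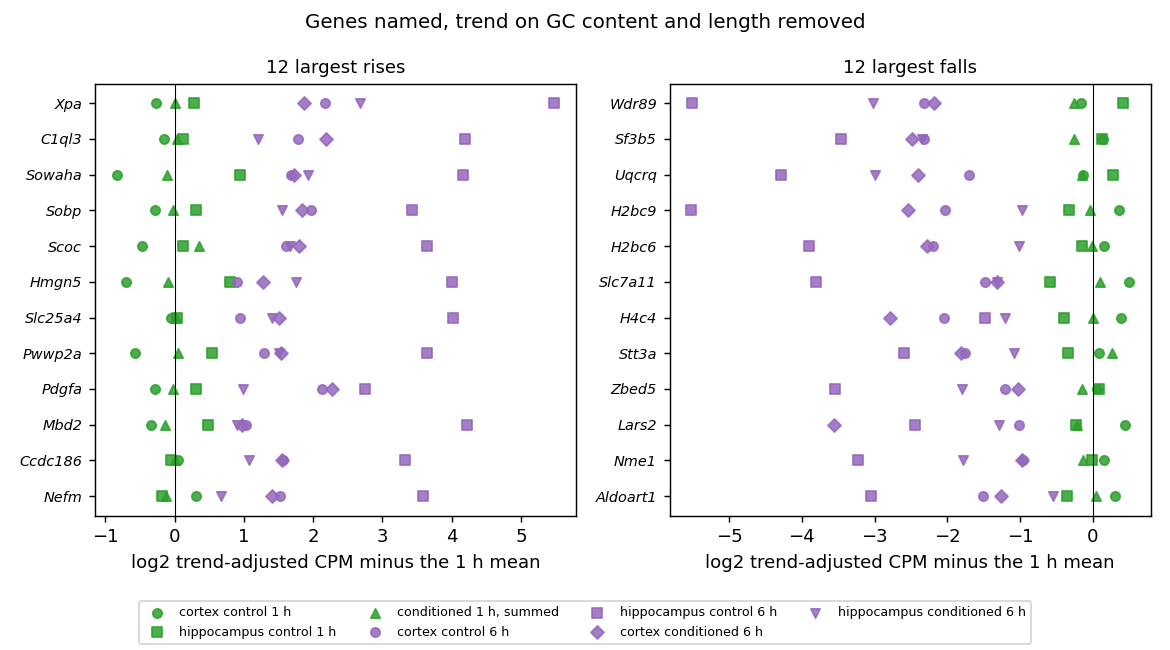
Trend-adjusted CPM of the 12 largest rises (left) and falls (right) in each of the 7 samples, on a log2 scale relative to the mean of the 3 samples at 1 h (x axis), with 1 row per gene. Genes were taken only if green 1 h and purple 6 h symbols did not overlap. Hippocampus control 6 h (purple squares) is the highest in all 12 rises and the lowest in 10 of the 12 falls.

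Among transcription factors that neurons induce with activity, every call with the trend removed was lower at 6 h. Of 26 members tested with the trend removed, 0 rose and 7 fell, which is 26.9% beside 10.7% of all genes. Their median log2 change was -0.69 beside -0.01 over all genes, and 19 were below 0. With the trend left in 2 were higher and 16 lower, with a median of -1.04, where 20.6% of all genes were higher and 16.7% lower. Egr2, a zinc finger factor, had 35.5, 9.74 and 23.03 trend-adjusted CPM at 1 h and 11.2, 1.998, 2.94 and 2.70 at 6 h, with a log2 change of -2.29 (SE 0.38, adjusted p = 0.0101). Egr1 of the same family had 1320.2, 381 and 868 at 1 h and 576, 302, 389 and 267 at 6 h, with a log2 change of -1.05 (SE 0.25, adjusted p = 0.0252). The groups overlapped in both, since cortex control 6 h exceeded hippocampus control 1 h. Within each control ratio of a 6 h to a 1 h library both genes were lower at 6 h. For Egr1 the trend-removed log2 ratio was -1.20 in control cortex and only -0.34 in control hippocampus. Both genes were also lower in the conditioned ratios. Those ratios share the pair at 1 h, whose tissue was not settled, so they do not add separate support within a tissue.

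Nr4a1, an orphan nuclear receptor, did not overlap, with 72.0, 33.2 and 51.7 at 1 h, 26.6, 13.2, 14.1 and 20.6 at 6 h and a log2 change of -1.41 (SE 0.28, adjusted p = 0.0154). Its relative Nr4a3 had 39.3, 59.8 and 50.6 at 1 h and 8.93, 29.4, 8.01 and 47.1 at 6 h, with a log2 change of -1.47 (SE 0.30, adjusted p = 0.0169), and hippocampus conditioned 6 h lay within the range of 1 h. Fos, a subunit of AP-1, had 19.9, 8.89 and 13.6 at 1 h and 13.7, 3.04, 2.76 and 1.39 at 6 h, with a log2 change of -1.61 (SE 0.40, adjusted p = 0.0284). In Fos the cortex control 6 h sample lay among those of 1 h and the other 3 lay below them. Bhlhe40, a repressor that also acts on the clock, had 312, 177 and 254 at 1 h and 158, 96.5, 140.1 and 145 at 6 h, without overlap, with a log2 change of -0.88 (SE 0.20, adjusted p = 0.0239). Junb (-0.68, adjusted p = 0.216) and Npas4 (0.36, adjusted p = 0.399), 2 further factors of this kind, did not pass.

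The pair is the only conditioned sample at 1 h, and without it 3 of the 26 passed, all lower. Egr2 (-1.69, adjusted p = 0.0455) and Nr4a3 (-1.63, 0.0337) were among those, and Nr4a1 (-1.33, 0.0688), Bhlhe40 (-0.94, 0.0873), Egr1 (-0.81, 0.189) and Fos (-0.81, 0.303) were not. Without hippocampus control 6 h, 10 of the 26 passed, all lower, with a median of -0.57. Of all genes 768 of 12047 were lower in that fit, and 145 of 11758 without the pair.

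Promoters of several of these genes bind CREB, which recognises the cyclic AMP response element TGACGTCA and its half-site TGACG. The RefSeq promoter table on GRCm38.p6, 250 bases before to 50 after the start of transcription, matched 19 of the 26 factors and 9520 of the genes tested. The half-site, searched on both strands and counted also within a full element, was present in 12 of the 19 and in 32.8% of all 9520 promoters. The full element was in 1 of the 19 and in 3.42% of all, and the CArG box of the serum response element in 0 of the 19 and in 1.32% of all. Of the 4 promoters of called factors in the table, those of Fos (chr12:85473640-85473939 (+ strand)), Nr4a1 (chr15:101266596-101266895 (+ strand)) and Nr4a3 (chr4:48045055-48045354 (+ strand)) held half-sites, shown in capitals below in the direction of transcription, and that of Egr2 held none in this window. These matches are of letters only.
Fos: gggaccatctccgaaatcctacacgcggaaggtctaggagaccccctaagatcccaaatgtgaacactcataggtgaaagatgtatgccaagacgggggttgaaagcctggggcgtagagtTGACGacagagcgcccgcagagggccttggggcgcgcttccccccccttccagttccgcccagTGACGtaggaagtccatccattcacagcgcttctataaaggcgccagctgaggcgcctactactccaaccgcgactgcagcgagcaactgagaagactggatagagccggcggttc
Nr4a1: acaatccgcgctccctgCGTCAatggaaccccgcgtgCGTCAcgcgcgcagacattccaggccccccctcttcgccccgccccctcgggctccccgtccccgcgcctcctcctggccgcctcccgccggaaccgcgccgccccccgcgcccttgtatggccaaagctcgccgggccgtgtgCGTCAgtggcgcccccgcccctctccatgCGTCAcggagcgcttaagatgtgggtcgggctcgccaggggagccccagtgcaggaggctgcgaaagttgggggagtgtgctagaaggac
Nr4a3: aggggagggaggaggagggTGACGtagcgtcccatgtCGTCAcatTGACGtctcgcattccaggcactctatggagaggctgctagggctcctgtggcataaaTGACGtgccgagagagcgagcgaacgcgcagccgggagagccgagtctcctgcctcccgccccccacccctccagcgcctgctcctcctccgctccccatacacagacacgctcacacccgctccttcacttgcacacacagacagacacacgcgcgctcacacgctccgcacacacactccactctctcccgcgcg

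Effectors and feedback inhibitors of the same response were mixed: 1 of 31 members rose and 4 fell, with a median log2 change of -0.30, 16.1% passing beside 10.7% of all genes. Without the pair 1 rose and 1 fell. Inhba, the subunit of the secreted protein activin A, was the member that rose, with 2.65, 3.19 and 3.24 trend-adjusted CPM at 1 h, 12.7, 19.9, 19.9 and 8.09 at 6 h and a log2 change of 2.21 (SE 0.37, adjusted p = 0.0102). Its 6 h samples all lay above its 1 h samples. Dusp6, a phosphatase that switches off ERK, went the other way without overlap, from 111, 47.6 and 70.4 at 1 h to 37.7, 12.5, 27.6 and 30.1 at 6 h, with a log2 change of -1.47 (SE 0.28, adjusted p = 0.0135). Pcsk1, a convertase of neuropeptide precursors (-1.26, adjusted p = 0.0277), and Errfi1, an inhibitor of the EGF receptor (-0.83, adjusted p = 0.0313), fell as well. With the trend left in Errfi1 did not pass (-0.47, adjusted p = 0.132). There Pcsk1 (-0.32 to 0.001) passed in no fit that left out a library. Arc, a synaptic protein that regulates AMPA receptors, had 86.7, 63.9 and 51.8 at 1 h and 59.3, 55.4, 14.1 and 41.1 at 6 h, overlapped and did not pass with the trend removed (-0.62, adjusted p = 0.197), though it had before (-1.50, adjusted p = 0.0222). Bdnf, a neurotrophin with an AT-rich message (40.9% GC), passed only with the trend left in (1.68, adjusted p = 0.00599, against 0.57, adjusted p = 0.150). Dusp1 did not pass in either fit (0.43, adjusted p = 0.358 with the trend removed).

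Of the 20 genes that respond to glucocorticoids, 3 rose and 3 fell, 30% beside 10.7% of all genes, and without the pair 3 rose and 0 fell. Sgk1, a kinase of ion transport, had 73.4, 55.2 and 82.9 at 1 h and 32.4, 32.8, 24.0 and 28.4 at 6 h, without overlap, with a log2 change of -1.27 (SE 0.22, adjusted p = 0.0109), and did not pass without the pair (-0.98, adjusted p = 0.0923). Klf9, a zinc finger factor, went from 99.3, 101 and 109 at 1 h to 254, 767, 198 and 150.2 at 6 h, with a log2 change of 1.59 (SE 0.38, adjusted p = 0.0273), and 0.92 without hippocampus control 6 h. The metallothionein Mt2 (1.20, adjusted p = 0.0111) and Hif3a (1.80, adjusted p = 0.0208) rose, while Fkbp5, a chaperone of the receptor, had 8.24, 27.5 and 12.8 at 1 h and 10.4, 34.5, 12.9 and 23.7 at 6 h and did not pass (0.37, adjusted p = 0.351). Fkbp5 was higher in both hippocampus samples of controls than in those of cortex, and its groups overlapped. With the trend left in, Mt2 (-0.46 to 0.09) and Hif3a (0.29 to 0.89) passed in no fit that left out a library.

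Of 23 clock genes, 2 rose and 2 fell, 17.4% beside 10.7% of all genes, and without the pair 0 passed. Usp2, a deubiquitinase under clock control, had 34.9, 26.2 and 30.2 at 1 h and 71.1, 56.2, 76.0 and 58.9 at 6 h, with a log2 change of 1.10 (SE 0.19, adjusted p = 0.0110). Dbp, an output factor of the clock, had 15.2, 11.4 and 13.5 at 1 h and 33.1, 17.7, 32.8 and 20.3 at 6 h, with a log2 change of 0.94 (SE 0.23, adjusted p = 0.0268). The groups did not overlap in either, but neither passed without the pair (Usp2 1.06, adjusted p = 0.0587, and Dbp 0.92, adjusted p = 0.162). Dbp has a GC-rich message (61.6% GC) and did not pass with the trend left in (-0.21, adjusted p = 0.626). Bhlhe40 was among the falls, and Per1 did not pass with the trend removed (-0.36, adjusted p = 0.300).

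**Figure D4:**
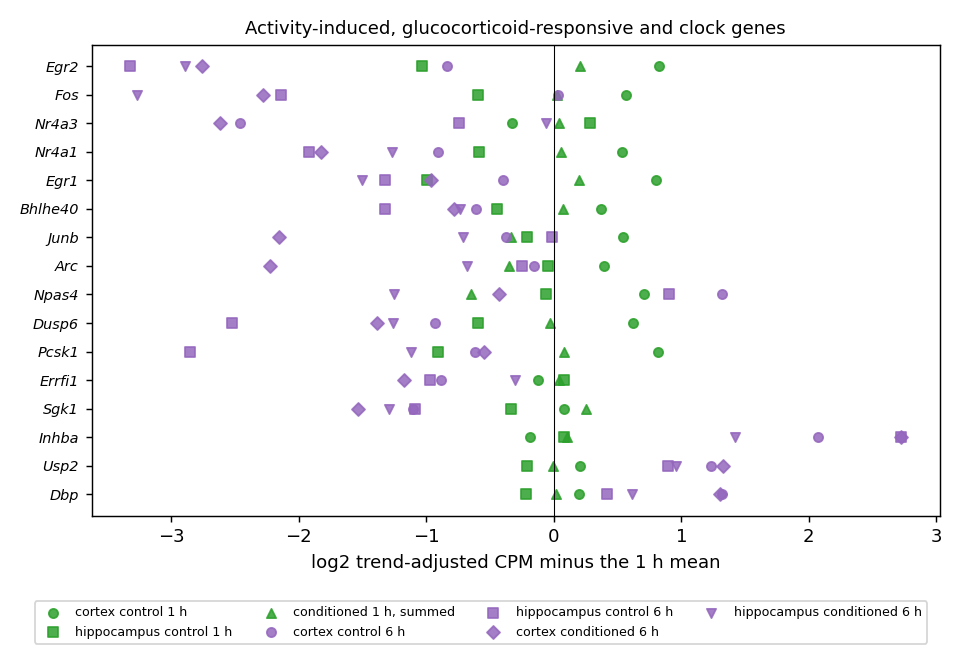
Trend-adjusted CPM of 16 activity-induced, glucocorticoid-responsive and clock genes in each of the 7 samples, on a log2 scale relative to the 1 h mean (x axis), green for 1 h and purple for 6 h. Inhba, Usp2 and Dbp lie to the right at 6 h, and Egr2, Nr4a1, Dusp6 and Sgk1 to the left.

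Among messages of ribosomal proteins, the respiratory chain and ATP synthase most calls were lower at 6 h, and they were more numerous before the trend was removed. Other lists of protein synthesis were mixed with the trend removed. Of 46 translation factors 4 rose and 3 fell (15.2%), and of 36 aminoacyl-tRNA synthetases 2 rose and 2 fell (11.1%). Of the cytosolic ribosomal proteins, whose near-identical pseudogenes may share reads, 1 of 84 members passed as higher and 41 as lower, with a median of -1.07 with the trend left in. In that fit 20.6% of all genes were higher and 16.7% lower. After removal 2 of 84 members rose and 12 fell, with a median log2 change of -0.37, so that 16.7% passed beside 10.7% of all genes. Rps20 had 23.3, 27.7 and 20.3 trend-adjusted CPM at 1 h and 6.57, 2.42, 5.40 and 3.23 at 6 h, with a log2 change of -2.40 (SE 0.30, adjusted p = 0.00769). Rpl37a (-1.79, adjusted p = 0.0141), Rpl15 (-1.14, adjusted p = 0.0136) and Rpl7 (-1.02, adjusted p = 0.0182) fell too, and none of these 4 overlapped between the times. Of mitochondrial ribosomal proteins 1 of 78 members rose and 10 fell, with a median log2 change of -0.29. That is 14.1% beside 10.7% of all genes, which is near the background. Mrpl17 (-1.33, adjusted p = 0.0101) and Mrpl11 (-1.56, adjusted p = 0.0147) were among the falls. With the trend left in, Rpl15 (-0.52 to -0.30) and Mrpl17 (-0.39 to -0.19) passed in no fit that left out a library.

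In respiratory complex I 1 of 37 members rose and 6 fell (18.9% passed), with a median log2 change of -0.40. In complexes II and III 0 of 14 rose and 3 fell (21.4%, median -0.52). In complex IV 0 of 12 rose and 3 fell (25%, -0.35), and in ATP synthase 1 of 18 rose and 6 fell (38.9%, -0.43). Of all genes 10.7% passed. Ndufb5 (-1.23, adjusted p = 0.0304) and Ndufv1 (-0.83, adjusted p = 0.0246) were among the falls of complex I. Cox5b, of complex IV, had 73.9, 72.7 and 67.4 at 1 h and 38.8, 12.5, 25.9 and 18.0 at 6 h, with a log2 change of -1.59 (SE 0.25, adjusted p = 0.00979). Atp5l, of ATP synthase, fell by 1.42 (adjusted p = 0.0135). Atp5j, another subunit of the same enzyme with a GC-rich transcript (56.0%), went the other way, from 24.5, 34.6 and 26.5 at 1 h to 57.4, 202, 78.8 and 69.9 at 6 h, with a log2 change of 1.78 (SE 0.31, adjusted p = 0.0107). In Atp5l and Atp5j the trend-adjusted values did not overlap between the times. With the trend left in Atp5j did not pass (0.44, adjusted p = 0.213). Of 23 proteins of mitochondrial import 0 rose and 5 fell (21.7% beside 10.7% of all genes), Tomm20 (-1.12, adjusted p = 0.0208) and Timm22 (-1.41, adjusted p = 0.0247) among them. With the trend left in, Tomm20 (-0.59 to -0.21) passed in no fit that left out a library. Without hippocampus control 6 h the falls numbered 19 of 84 ribosomal proteins, 11 of 37 in complex I and 7 of 18 in ATP synthase, and without the pair 5, 1 and 3. The falls over all genes also moved, to 768 of 12047 and 145 of 11758 in these fits.

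Replication-dependent histones, whose messages lack a poly A tail and are near-identical within families, were lower in 54 of 64 members with the trend left in, with a median of -1.87. In that fit 16.7% of all genes were lower. Their median GC content was 58.1%, and with the trend removed 0 rose and 13 fell (20.3% beside 10.7% of all genes), with a median of -0.41. By ratio this median was -0.74 in cortex control, -0.59 in hippocampus control and -0.80 in cortex conditioned, and 0.30 in hippocampus conditioned, which went the other way. H1f3, a linker histone, had 49.0, 28.5 and 38.6 at 1 h and 5.13, 1.94, 4.59 and 14.6 at 6 h, with a log2 change of -2.75 (SE 0.45, adjusted p = 0.0101). H3c7 had 17.6, 12.1 and 12.5 at 1 h and 2.75, 5.69, 2.08 and 5.34 at 6 h, with a log2 change of -1.90 (SE 0.35, adjusted p = 0.0121). Neither overlapped between the times, and reads may be shared among such copies.

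Several other lists held falls and no rise with the trend removed. Of 35 proteasome subunits 6 fell (17.1% beside 10.7% of all genes), with a median of -0.17, Psmb1 (-1.03, adjusted p = 0.0165) and Psmb4 (-1.0, adjusted p = 0.0168) among them. Of 18 subunits of the vacuolar ATPase, which acidifies vesicles and lysosomes, 5 fell (27.8%) and 17 were below 0 (median -0.41). Atp6v1a, its catalytic subunit, had 2035, 934 and 1344 at 1 h and 689.6, 666, 680.3 and 828 at 6 h, with a log2 change of -0.97 (SE 0.26, adjusted p = 0.0365). With the trend left in Atp6v1a did not pass (-0.21, adjusted p = 0.584), and its times overlapped. Of 22 enzymes of cholesterol synthesis 4 fell (18.2% beside 10.7% of all genes) and 18 were below 0 (median -0.59). Hsd17b7 (-1.47, adjusted p = 0.0202), Sc5d (-1.001, adjusted p = 0.0405) and Msmo1 (-0.91, adjusted p = 0.0419) were among the falls. With the trend left in, Psmb1 (-0.72 to -0.33), Sc5d (-0.28 to 0.10) and Msmo1 (-0.48 to -0.31) passed in no fit that left out a library. With the trend left in 4 proteasome subunits were higher and 14 lower, 0 and 9 subunits of the vacuolar ATPase, and 1 and 9 enzymes of cholesterol synthesis. In that fit 20.6% of all genes were higher and 16.7% lower. Without the pair 0 proteasome subunits, 0 subunits of the vacuolar ATPase and 1 enzyme of cholesterol synthesis passed. Of all genes 566 of 11758 passed in that fit, 145 of them lower.

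In lists of chromosome structure and of the centrosome every call with the trend removed was higher at 6 h. Of 17 subunits and regulators of the SMC complexes, the cohesin and condensin rings that hold and fold chromosomes, 8 rose and 0 fell (47.1% beside 10.7% of all genes, median 0.41), and 15 were above 0. The list is AT-rich, with a median GC content of 42.3%, and before removal 14 were higher with a median of 1.56, beside 20.6% of all genes higher. Smc3, a core of cohesin, had 68.7, 73.8 and 64.3 trend-adjusted CPM at 1 h and 139.6, 234, 137 and 132 at 6 h, with a log2 change of 1.24 (SE 0.21, adjusted p = 0.0102). Wapl, which releases cohesin from DNA, had 33.9, 43.7 and 37.1 at 1 h and 85.6, 97.7, 73.8 and 84.7 at 6 h, with a log2 change of 1.18 (SE 0.19, adjusted p = 0.00979). The 4 values of Wapl at 6 h lay close together, and those of Smc3 did so apart from hippocampus control. Smc6 (1.68, adjusted p = 0.0128) and Smc4 (2.17, adjusted p = 0.0154) rose as well. Without hippocampus control 6 h 6 members rose and 1 fell, and without the pair 6 rose and 0 fell. Of all genes 1010 of 12047 and 421 of 11758 rose in these 2 fits.

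Of 69 cilium and centrosome proteins 16 rose and 0 fell (23.2% beside 10.7% of all genes, median 0.35). Akap9, a scaffold of the centrosome and Golgi, had 119, 107 and 111 at 1 h and 364, 369.9, 331 and 188 at 6 h, with a log2 change of 1.49 (SE 0.22, adjusted p = 0.00866). Ift20, a carrier of cargo into cilia, had 11.8, 22.7 and 13.1 at 1 h and 41.3, 76.0, 52.0 and 39.4 at 6 h, with a log2 change of 1.78 (SE 0.28, adjusted p = 0.00975). In both all 6 h samples lay above all 1 h samples. Cep290 (1.60, adjusted p = 0.0102) and Cep83 (1.78, adjusted p = 0.0135) are further members. Without the pair 11 of the 69 rose and 0 fell, and without hippocampus control 6 h 15 rose and 2 fell.

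Of 291 zinc finger proteins with a numbered Zfp symbol, many of them repressors of the KRAB family, 27 rose and 1 fell (median 0.32), so that 9.62% passed beside 10.7% of all genes. Zfp37 had 8.72, 9.32 and 11.3 at 1 h and 31.1, 50.5, 29.0 and 27.8 at 6 h, with a log2 change of 1.79 (SE 0.27, adjusted p = 0.00866). Zfp809, which silences retroviral DNA, had 4.57, 3.21 and 2.77 at 1 h and 9.04, 17.6, 7.78 and 8.15 at 6 h, with a log2 change of 1.64 (SE 0.33, adjusted p = 0.0147). Zfp1 (1.47, adjusted p = 0.0116) and Zfp711 (1.19, adjusted p = 0.0144) rose too, and none of the 4 overlapped. Of 53 enzymes and readers of histone and DNA methylation 7 rose and 0 fell (median 0.25), 13.2% beside 10.7% of all genes, which is near the background. Those of smallest p were the H4K20 methyltransferase Kmt5a (1.36, adjusted p = 0.0121), Kmt2e (1.14, adjusted p = 0.0128), the 5-methylcytosine oxidase Tet2 (1.05, adjusted p = 0.0224) and Setd5 (0.89, adjusted p = 0.0262). Of 39 enzymes of histone acetylation 4 rose and 0 fell, 10.3% beside the 10.7% of all genes. Without the pair 9 zinc finger, 3 methylation and 1 acetylation gene rose.

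Of 43 synaptic vesicle and release proteins 8 rose and 1 fell with the trend removed (20.9% beside 10.7% of all genes), with a median of 0.07. With the trend left in 12 were higher and 10 lower, where 20.6% of all genes were higher and 16.7% lower. Cplx2, a complexin that clamps and promotes fusion, had 388, 853 and 399.8 trend-adjusted CPM at 1 h and 1091, 2581, 922 and 1036 at 6 h, with a log2 change of 1.46 (SE 0.25, adjusted p = 0.0102). Syt7, a calcium sensor of asynchronous release, had 63.8, 90.1 and 71.1 at 1 h and 132, 199, 142 and 147 at 6 h, with a log2 change of 1.07 (SE 0.19, adjusted p = 0.0116), although with the trend left in it stood at -0.10 in a transcript of 59.2% GC. Neither overlapped between the times. The active zone proteins Rims2 (1.20, adjusted p = 0.0128) and Ppfia2 (1.29, adjusted p = 0.0135) rose as well. Snap25, a SNARE of vesicle fusion, had 12116, 6679.6 and 10828 at 1 h and 19945, 18361, 20223 and 13816 at 6 h, with no overlap, and did not pass once the trend was removed (0.90, adjusted p = 0.0557, against 1.63, adjusted p = 0.00775).

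Of 36 postsynaptic scaffold and adhesion proteins 5 rose and 0 fell (median 0.26), 13.9% beside 10.7% of all genes. The count was 8 and 4 without hippocampus control 6 h (median 0.10) and also 8 and 4 with the trend left in (median 0.04). Of all 12047 genes 1010 rose and 768 fell without that library. With the trend left in 20.6% of all genes were higher and 16.7% lower. Homer2, a scaffold of metabotropic glutamate receptors, had 35.6, 56.5 and 40.5 at 1 h and 97.8, 216, 90.5 and 106 at 6 h, with a log2 change of 1.53 (SE 0.22, adjusted p = 0.00849). Dlgap1, of the postsynaptic density, had 402, 356 and 396 at 1 h and 755, 1507, 872 and 686 at 6 h, with a log2 change of 1.31 (SE 0.27, adjusted p = 0.0165). The adhesion protein Lrrtm1 (1.06, adjusted p = 0.0144) rose too, and of these 3 only Lrrtm1 overlapped between the times. With the trend left in, Lrrtm1 (0.21 to 0.38) passed in no fit that left out a library. Camk2a, the kinase most abundant in the postsynaptic density, had 2826, 3289.6 and 3063 at 1 h and 3823, 3566, 3874 and 4665 at 6 h without overlap, and did not pass (0.36, adjusted p = 0.319).

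The GABA-A receptor list shows how far a gene group could turn on the trend. Before removal 12 of 15 members were higher and 2 lower, with a median of 1.25, and after it 1 rose and 1 fell, with a median of 0.04. Of all genes 20.6% were higher and 16.7% lower before removal. After removal 13.3% of the list passed beside 10.7% of all genes, which is near the background. The median GC content of the list was 42.9%. Gabra4, an alpha subunit, had 32.6, 38.3 and 36.1 trend-adjusted CPM at 1 h and 47.5, 62.6, 54.0 and 46.1 at 6 h, did not overlap and missed the threshold (0.56, adjusted p = 0.0965). Gabra5, another alpha subunit, rose (1.08, adjusted p = 0.0439), by 0.54 without hippocampus control 6 h. Gabrd, the delta subunit of extrasynaptic receptors, has a GC-rich transcript (56.8%) and had 25.2, 7.83 and 20.9 at 1 h and 14.8, 5.06, 14.4 and 1.92 at 6 h, with a log2 change of -1.31 (SE 0.31, adjusted p = 0.0252). Its hippocampus conditioned 6 h value was the lowest, and the times overlapped.

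Translational repressors and RNA-binding proteins went from 25 of 50 higher and 2 lower with the trend left in to 5 and 2 with it removed. Over all genes 20.6% were higher and 16.7% lower before removal. After it 14% of the list passed beside 10.7% of all genes, which is near the background. Celf4, a neuronal regulator of splicing and translation, had 209, 171 and 179 at 1 h and 751, 679.5, 659 and 499 at 6 h, with a log2 change of 1.82 (SE 0.20, adjusted p = 0.00628), and gave 1.74 to 1.87 when any single library was left out, past the threshold in 7 of the 8 fits. The fits that left out 1 library of the pair kept the other in its place, so they dropped no sample. Without the pair Celf4 gave 1.91 (adjusted p = 0.00835). Elavl3, which stabilises AU-rich messages (1.69, adjusted p = 0.00769), and Msi2 (1.43, adjusted p = 0.0101) rose, and Cpeb1, which binds the cytoplasmic polyadenylation element, fell (-1.04, adjusted p = 0.0195). All 4 were without overlap. Fmr1, the fragile X gene, passed with the trend left in (1.77, adjusted p = 0.00713) and not after removal (0.43, adjusted p = 0.197). Of 14 long noncoding RNAs 3 rose and 0 fell (21.4% beside 10.7% of all genes). Malat1, a noncoding RNA of the nucleus that is not translated, had 809.8, 3470.0 and 868 at 1 h and 3258, 7633, 2089 and 2495 at 6 h, with a log2 change of 1.49 (SE 0.32, adjusted p = 0.0184). Its hippocampus control 1 h value lay above those of 3 of the 4 samples at 6 h, so the times overlapped. Meg3 (1.56, adjusted p = 0.0349) and Oip5os1 (0.71, adjusted p = 0.0475) were the other 2. Meg3 did not pass without hippocampus control 6 h (1.26, adjusted p = 0.445), nor Oip5os1 (0.58, adjusted p = 0.318) and Malat1 (1.51, adjusted p = 0.0600) without the pair. Meg3 passed in 3 and Oip5os1 in 2 of the 8 fits that left out 1 library, counted as for Celf4.

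**Figure D5:**
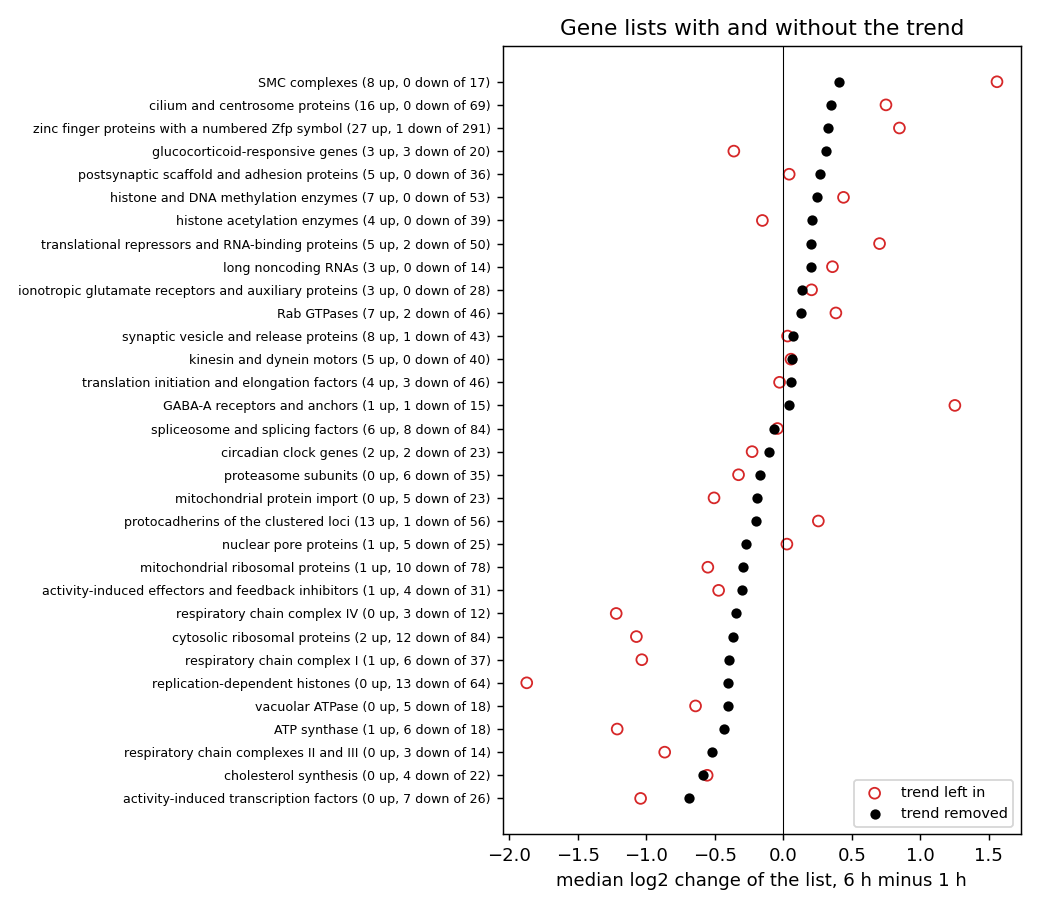
Median log2 change from 1 h to 6 h (x axis) of 32 gene lists with the trend left in (open red circles) and removed (black dots), with the number of members that rose and fell after removal beside each name. The medians draw in toward 0 for most lists, that of the SMC complexes from 1.56 to 0.41 and that of the replication-dependent histones from -1.87 to -0.41.

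The other lists are given with the share of members that passed, beside 10.7% of all genes. The clustered protocadherins counted 13 rises and 1 fall of 56 (25%), but the 13 are all of the alpha cluster, whose members share their constant exons and therefore reads. Of 84 splicing factors 6 rose and 8 fell (16.7%), of 46 translation factors 4 and 3 (15.2%) and of 46 Rab GTPases 7 and 2 (19.6%). Of 40 kinesin and dynein motors 5 rose and 0 fell (12.5%), and of 28 ionotropic glutamate receptors and their auxiliary proteins 3 and 0 (10.7%). Both of these shares are near that of all genes. Of 25 nuclear pore proteins 1 rose and 5 fell (24%). The rise was the basket protein Tpr (1.71, adjusted p = 0.0119), and Ndc1 (-1.27, adjusted p = 0.0182) was among the falls. With the trend left in, Ndc1 (-0.75 to -0.56) passed in no fit that left out a library. Tpr had 154, 137 and 139.6 at 1 h and 351, 935, 341 and 307 at 6 h, without overlap and highest in hippocampus control.

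Whether the change from 1 h to 6 h differed between the tissues was tested as an interaction with the trend removed. It passed for 0 of 11951 genes (0%) in edgeR, in DESeq2 and in limma-voom, with 480 at an unadjusted p under 0.05 and a smallest adjusted p of 0.910 in edgeR. The interaction of time with training passed for 1 of 12439 genes (0.00804%), with 134 at an unadjusted p under 0.05. These fits had 2 residual degrees of freedom and can miss differences. Single libraries also changed the counts: without hippocampus control 6 h the tissue interaction passed for 456 genes and without hippocampus conditioned 6 h for 1774, with 1 residual degree of freedom each, and without cortex control 6 h the training interaction passed for 229. The latter passed for 0 genes without hippocampus control 1 h, without hippocampus control 6 h and without hippocampus conditioned 6 h.

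The gene of the training interaction was C1ql2, a secreted protein of dentate gyrus granule cells and one of the hippocampal markers. It had 0.155, 22.5 and 10.5 trend-adjusted CPM at 1 h and 0.452, 146.3, 0 and 22.9 at 6 h. The level followed the labelled tissue, near 0 in cortex and high in hippocampus, and stood between them in the summed conditioned sample. Its interaction was -5.52 on the log2 scale (SE 0.75, adjusted p = 0.00338). The fit placed the summed sample halfway between the tissues on the log scale, and the part of that choice in this value was not tested. Dsp, a desmosomal protein that is also such a marker, had 0, 22.01 and 7.98 at 1 h and 0.190, 76.1, 0 and 35.7 at 6 h, and did not pass.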

How the data were processed

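The authors deposited 1 table of raw counts of reads per RefSeq transcript for the 8 libraries. The submitters' processing notes name TopHat 1.3.1, CASAVA 1.7, limma 3.12.3, edgeR and build mm9. The sources used here do not give the counting program or whether strand was used, so overlapping, antisense and near-identical genes may share reads. Of 28157 rows, 97.9% were matched to a symbol through RefSeq and GENCODE tables of GRCm38, and each gene was represented by the row of highest summed count (22163 genes). GC content and length came from GENCODE vM21 transcripts. Members and gene lists (57) were chosen with earlier results of these data known.

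Tests were run in R 4.3.3 with edgeR 4.0.16 (robust quasi-likelihood, TMM factors, default low-count filter, Benjamini-Hochberg at 0.05) on 7 samples, with tissue (0.5 for the summed sample), training and time as additive terms and 3 residual degrees of freedom. For the second fit, curves of mgcv 1.9.3 on GC content and log10 length, fitted per sample to log2 CPM (prior count 2) minus the gene's mean, entered as offsets. 308 genes without a GC content were left out of it. SE is the log2 change over the root of the F statistic. Alternatives included DESeq2 1.42.0, limma-voom (limma 3.58.1), other factors and filters, and leaving out each library. Leaving out 1 library of the pair kept the other as the conditioned 1 h sample, so it dropped no sample. The fits were also run on simulated counts with the same spread for every gene. Where a GC trend was added, it was the same in all samples of a time. The libraries here differ from that, so the run is no support for the calls above. The text names the 12 largest rises and falls with the trend removed and the 6 with it left in, among genes that passed, had an average log2 CPM of at least 4, moved alike in all 4 ratios and did not overlap, up to 4 genes per direction of each interaction, up to 4 members of smallest p per list, and 21 fixed genes. Amplified reads without molecular identifiers are not independent molecules. Some genes that met these rules are not reported here.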

Additional observations from a re-analysis of the deposited data

Results flagged for a closer look

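In 16 of 118 values of named genes and slopes 1 of the 4 samples at 6 h stood apart from the other 3 by more than Dixon's 95% limit on log2 trend-adjusted CPM. That limit is set at 1 in 20 for independent groups, a rate that does not apply here. Most of these genes were chosen from these same data by the size or p-value of their change, and all share the same 4 libraries. In 13 of the 16 that sample was hippocampus control 6 h. Among genes that rose it stood above the others in Sowaha (9.61, beside 7.13 to 7.38), Scoc (8.13, beside 6.10 to 6.28), Pwwp2a (6.78, beside 4.43 to 4.68), Mbd2 (7.55, beside 4.23 to 4.36), Smc3 (7.87, beside 7.04 to 7.13), Smc4 (4.65, beside 2.97 to 3.10), Cplx2 (11.33, beside 9.85 to 10.09) and Tpr (9.87, beside 8.26 to 8.46). Among genes that fell it stood below the others in Sf3b5 (1.71, beside 2.67 to 2.84), Slc7a11 (2.33, beside 4.63 to 4.79), Rabac1 (1.05, beside 3.20 to 3.38), Rpl37a (-0.19, beside 2.55 to 3.03) and Hsd17b7 (2.20, beside 4.06 to 4.42). Hippocampus conditioned 6 h stood apart in Rplp1 (2.45, beside 3.61 to 3.83), Akap9 (7.55, beside 8.37 to 8.53) and Atp6v1a (9.69, beside 9.38 to 9.43).

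C1ql2 is set out here because its change from 1 h to 6 h differed between the training states in the interaction test (-5.52 on the log2 scale), a value that rests on 1 conditioned sample at 1 h and on a gene near 0 in the cortex libraries.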

How the results depend on the processing

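The count of genes that differed with the trend left in ranged from 0 to 5379 when single libraries were left out, and was 2677 without the pair, 890 without the pair and hippocampus control 6 h, and 2694 in control libraries only. With the trend removed it ranged from 0 to 1778, and was 566, 184 and 680 in the same 3 settings, 733 with 3 combinations of tissue and training as a block, and 4256 when length alone was removed. Leaving out single libraries gave 0 to 1774 genes for the tissue interaction, 0 to 229 for the training interaction and a difference in GC slope of -1.28 to -0.92. The training interaction passed for 3 genes when every gene with a count was tested. The other scalings, tools and filters, the 4 combinations as a block over 8 libraries (5423 and 1564 genes) and every transcript (6167 and 1762) moved both counts by less than 1.5 times. The change over time of C1ql2 and Dsp, not called as reported, ranged from -3.93 to 2.13 and from -2.70 to 1.57 without single libraries. Without hippocampus control 6 h both passed as falls in edgeR (-1.81, adjusted p = 0.0147, and -1.50, adjusted p = 0.0496). Without the pair both passed as rises (2.59, adjusted p = 0.00958, and 1.81, adjusted p = 0.0395). The cause was not tested. Over 117 named genes, 241 of the 1839 values of called genes under an alternative missed the threshold with the trend left in and 455 of 2567 with it removed, most of them without cortex control 1 h, hippocampus control 1 h, cortex conditioned 6 h or the pair. The tissue interaction could not be estimated without the pair and hippocampus control 6 h, nor the training interaction without the pair. No paired analysis was possible because the labels give no replicate numbers, and libraries were matched across times only by tissue and training, as in the blocks above.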
